A study of Mus musculus with 6 samples.

Results

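The Mediator complex messages were the 33 genes whose symbols are Med followed by a number, with or without a final l, together with Cdk8, Cdk19 and Ccnc. They were found by symbol among 51912 genes in libraries of poly(A) RNA from E14, a line of mouse embryonic stem cells, and all 33 were among the 13231 genes that passed the filter on low counts. RAPIDASH is a purification of ribosomes without tags. The 3 eluate libraries held RNA from ribosome-containing sucrose cushion pellets that had then been passed over a resin charged with cysteine and eluted, and the 3 pellet libraries held RNA taken directly from such pellets. All were E14 cells, with no genetic change named in the labels, grown with leukemia inhibitory factor in serum, and given 100 µg/mL cycloheximide for 3 minutes before harvest, and each cushion was loaded with about 75 µg of RNA. The comparison asks which messages the resin step raises or lowers relative to the cushion alone. The titles number the samples of each kind as replicates, and no label ties them to separate cultures; the p-values therefore cover only the scatter among these samples, which may be technical.

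Library totals were 1.002e+07 to 1.16e+07 estimated counts in the eluates and 7.84e+06 to 1.04e+07 in the pellets. On the first principal component of all genes, which held 60.2% of the variance, the eluates lay at -45.1 to -32.5, pellets 2 and 3 at 45.7 and 49.0, and pellet 1 apart from them at 20.3. All 9 embryonic stem cell markers were measured, at a summed 11600 to 11961 CPM (counts scaled to the same library total) in the eluates and 9382 to 9704 CPM in the pellets. Of the 6 fibroblast markers, 2 passed the filter, at a summed 16.7 to 23.1 CPM for all 6 in the eluates and 10.6 to 14.1 CPM in the pellets. The 3 mesoderm markers were each under 1 CPM on average while the 4 endoderm markers summed to 8.82 to 12.5 CPM in the eluates and 6.78 to 8.55 CPM in the pellets. Of the 4 neural markers, 3 passed the filter and Neurog2 was at 0, and all 4 summed to 83.6 to 99.4 CPM in the eluates and 82.4 to 99.1 CPM in the pellets. The libraries are bulk, so fewer cells of a kind and less of an RNA per cell cannot be told apart.

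Mediator is a large assembly that carries signals from DNA-bound activators to RNA polymerase II at promoters. Its head, middle and tail modules are held on a scaffold subunit, Med14. The head and middle contact the polymerase, the tail receives many activators, and a detachable kinase module, made of Cdk8 or Cdk19 with cyclin C, Med12 and Med13, regulates the rest. In vertebrates Med12, Med13 and Cdk8 each have a paralog, Med12l, Med13l and Cdk19. In embryonic stem cells Mediator is known for its binding at enhancers of pluripotency genes together with cohesin.

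Among the Mediator messages, those of the kinase module and of Med14, Med1, Med17, Med6 and Med7 were lower in the eluates. Many messages of small or GC-rich subunits were higher, among them Med25 and Med15, with longer coding sequences than Med17. By edgeR's quasi-likelihood test at an adjusted p under 0.05 over all genes tested, 13 of the 33 were higher in the eluates and 12 were lower, against 24.5% and 28.2% of all genes tested. The median log2 fold change of eluate over pellet was 0.13 for the 33 messages and 0.0035 for all genes tested. The other 8 were not called, and all 8 had a 95% interval within a 1.5-fold change either way. So had some called members, and 14 of the 33 in all. Med13, at -1.07, was the one member with a log2 fold change beyond 1 in either direction. Every eluate lay above every pellet in 15 members and below every pellet in 13, against 29.1% and 31.2% of all genes tested. Without pellet 1, the library that stood apart, 14 members were higher and 12 were lower. With each library's trend in GC and length removed, which is described after the modules, 15 were higher and 4 lower, and Med13, Ccnc, Med14, Med1 and Med7 changed direction to a higher call.

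**Figure D1:**
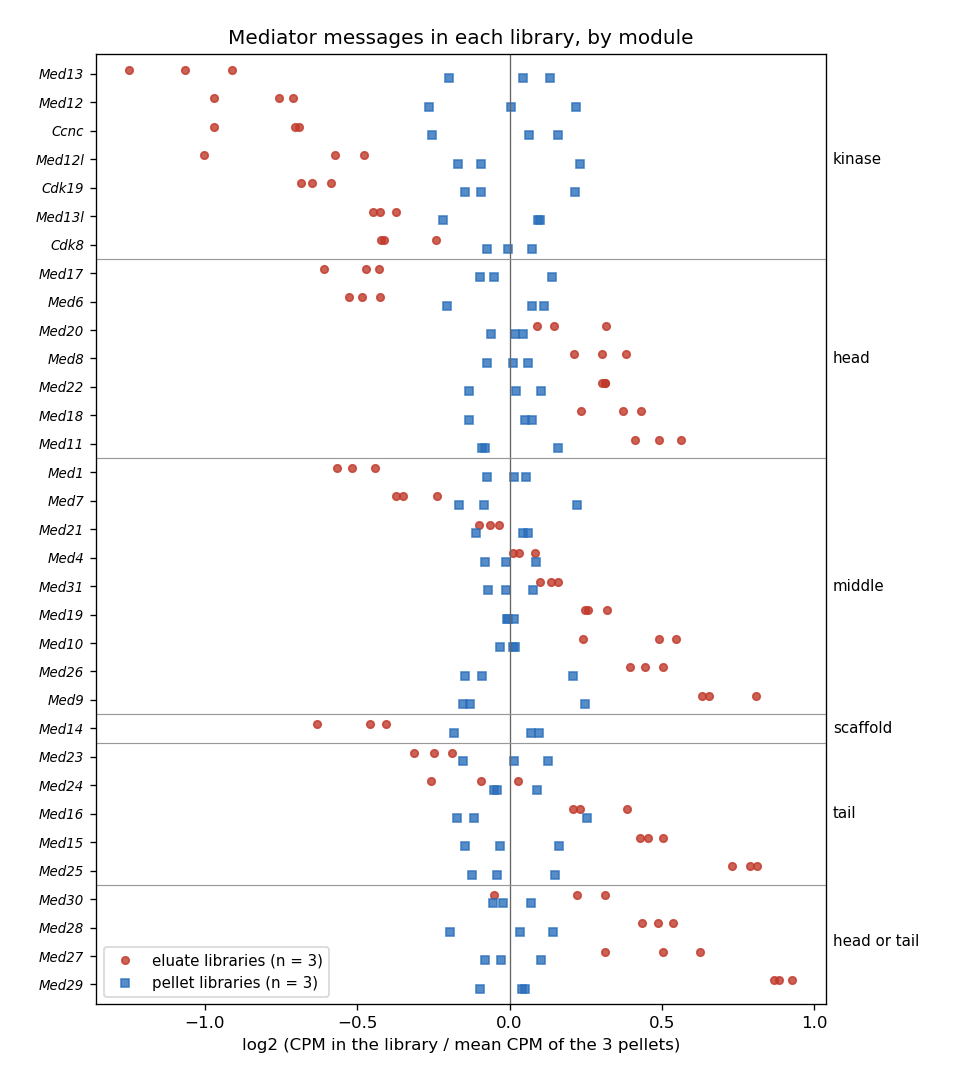
Each point is the CPM of 1 Mediator message in 1 library, as the log2 ratio to the mean of the 3 pellets, with eluates as red circles and pellets as blue squares and the members grouped by module. All 7 kinase module messages lie to the left in the eluates, with every eluate below every pellet on these counts (2 of them were higher and 1 lower once the trend in GC and length was removed), while the members of the other modules lie on both sides.

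Coding letters of 6 members are shown. Med9 and Med21, and Med13 and Med13l, are of like role and length but differed in the base at the third codon position. The share of G and C at that position ran with the log2 fold changes across the complex (rank correlation = 0.71). Ccnc and Med25, of unlike role and length, are shown as well. Each line below gives the last 120 coding bases before the stop codon, read from the longest coding transcript of the gene in GENCODE mouse release 21 (build GRCm38), which has the same identifier and length in the deposited files, 5′ to 3′ on the coding strand. For Med13l and Med25 the longest coding transcript was not the transcript with the most counts. Capitals mark a G or C at the third position of a codon. The stretch was chosen after its letters were seen, so the share over the whole coding sequence is given with it.
Med9: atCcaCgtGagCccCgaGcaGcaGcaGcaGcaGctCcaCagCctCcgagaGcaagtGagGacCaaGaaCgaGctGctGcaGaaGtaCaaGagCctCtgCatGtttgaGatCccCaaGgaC
Med21: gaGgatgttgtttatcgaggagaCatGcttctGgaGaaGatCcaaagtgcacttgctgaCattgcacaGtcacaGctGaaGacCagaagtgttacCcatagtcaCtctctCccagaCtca
Med13: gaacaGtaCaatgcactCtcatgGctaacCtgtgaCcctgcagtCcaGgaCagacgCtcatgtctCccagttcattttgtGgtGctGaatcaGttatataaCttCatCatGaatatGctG
Med13l: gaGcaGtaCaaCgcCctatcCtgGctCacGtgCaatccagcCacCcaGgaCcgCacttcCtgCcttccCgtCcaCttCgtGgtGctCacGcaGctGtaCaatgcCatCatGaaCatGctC
Ccnc: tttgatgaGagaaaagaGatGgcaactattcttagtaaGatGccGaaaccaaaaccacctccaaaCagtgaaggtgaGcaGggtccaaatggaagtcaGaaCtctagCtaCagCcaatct
Med25: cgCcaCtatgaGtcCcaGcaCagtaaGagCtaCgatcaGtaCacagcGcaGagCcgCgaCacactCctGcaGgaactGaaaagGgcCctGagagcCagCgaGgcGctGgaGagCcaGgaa
Med9 and Med21, middle module subunits of similar size, are encoded on chromosomes 11 (plus strand) and 6 (plus strand). In the stretch shown, 37 of 40 Med9 codons ended in G or C, against 17 of 40 in Med21, and over the whole coding sequence the shares were 81.7% and 31.9%. Med13 (chromosome 11, minus strand) and Med13l (chromosome 5, plus strand), the paralogs that link the kinase module to the core, matched at 83 of 120 bases without gaps, or 69.2%. Of their 40 codons, 21 ended in G or C in Med13 and 34 in Med13l, with whole-sequence shares of 35.7% and 61.4%. Ccnc (chromosome 4, plus strand) had 14 of 40 codons ending in G or C, and Med25 (chromosome 7, minus strand) had 31 of 40, with whole-sequence shares of 39.2% and 66.8%.

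All 7 kinase module messages were lower in the eluates, with a median log2 fold change of -0.67, and in each the groups did not overlap. Of all genes tested, 28.2% were lower and 31.2% had every eluate below every pellet. The median coding length of the 7 was 6513 nt and median GC 45.9%, against 735 nt and 50.2% for the 26 other members. With the trend in both removed 2 of the 7 were higher, 1 was lower and 4 were not called. Med13 docks the kinase module on the core. Its level was 16.0, 20.3 and 18.2 CPM in eluates 1 to 3, against 33.2, 39.3 and 41.8 CPM in pellets 1 to 3. The highest eluate was well under the lowest pellet, and the log2 fold change was -1.07 ± 0.12 (SE, adjusted p = 3.07e-06 by edgeR's quasi-likelihood test). Med13l, its paralog, measured 36.3, 34.4 and 34.9 CPM in the eluates, against 50.4, 40.4 and 50.1 CPM in the pellets. It changed by -0.41 ± 0.10 (adjusted p = 0.00253), and its call was lost when both libraries numbered 3 were left out (-0.36, adjusted p = 0.0674). Since counts of long and short messages cannot be set against each other, levels of the paralogs were compared as TPM, Salmon's abundance scaled by transcript length. The TPM ratio of Med13 over Med13l was 0.457, 0.616 and 0.545 in the eluates, against 0.676, 0.952 and 0.830 in the pellets. No eluate ratio reached the lowest pellet ratio, and the difference of the ratio was not tested. The log2 fold change of Med13 less that of Med13l was -0.66 on the counts and turned to 0.39 with the trend in GC and length removed.

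Med12 activates the kinase and is altered in several human disorders. It was measured at 13.4, 13.0 and 11.2 CPM in the eluates, against 25.5, 22.1 and 18.3 CPM in the pellets, a log2 fold change of -0.81 ± 0.14 (adjusted p = 0.000191). The eluates lay close together and the pellets spread more widely, with no overlap. Its paralog Med12l was the weakest message of the complex, at 2.35, 1.64 and 2.20 CPM in the eluates, against 2.91, 3.85 and 3.07 CPM in the pellets. With a log2 fold change of -0.67 ± 0.27 and an adjusted p of 0.0464, Med12l was at the edge of the threshold. Its call was lost without eluate 1 (adjusted p = 0.0591), eluate 2 (0.162), eluate 3 (0.0730), pellet 2 (0.196) or pellet 3 (0.0730), and with DESeq2 (0.198). Of the 31-base words of its transcript with the most counts, 17.6% occur in transcripts of other genes, chiefly Igsf10, so its estimated counts are uncertain. The same share, taken for each member over its transcript with the most counts, was 10.4% for Med12, with Gm21986, and 6.60% for Med13, with Brip1os. The TPM ratio of Med12l over Med12 overlapped between the groups, at 0.205, 0.131 and 0.269 in the eluates and 0.0890, 0.140 and 0.202 in the pellets.

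Ccnc encodes cyclin C, the partner that switches on the kinase. It stood at 25.3, 30.6 and 30.3 CPM in the eluates, against 41.5, 51.7 and 55.2 CPM in the pellets, and changed by -0.78 ± 0.12 (adjusted p = 4.70e-05). With a coding sequence of 849 nt it is shorter than the other kinase module messages, and at 34.98% GC its transcript was the lowest of the 33. Cdk19 and Cdk8 are alternative kinases that phosphorylate regulators of transcription. Cdk19 had 12.6, 13.2 and 12.3 CPM in the eluates, against 18.5, 23.0 and 17.9 CPM in the pellets (-0.64 ± 0.13, adjusted p = 0.000792). Cdk8 had 43.0, 48.7 and 43.2 CPM in the eluates, against 54.7, 57.4 and 60.7 CPM in the pellets (-0.35 ± 0.087, adjusted p = 0.00281). Both kinases were lower in every eluate than in every pellet. The Cdk8 call was lost without both libraries numbered 3 (adjusted p = 0.0789), and 24.4% of its 31-base words are shared with Gm7107. The TPM ratio of Cdk19 over Cdk8 overlapped, at 0.140, 0.124 and 0.157 in the eluates and 0.176, 0.194 and 0.138 in the pellets.

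Summed by TPM, the kinase module made up 4.24%, 4.81% and 4.55% of all Mediator message in eluates 1 to 3, against 7.10%, 7.48% and 8.13% in pellets 1 to 3. The means were 4.53% ± 0.288 in the eluates and 7.57% ± 0.522 in the pellets (SD, n = 3 each), with no overlap. The summed level of the whole complex was 1041, 1061 and 1079 TPM in the eluates, against 1054, 923.3 and 938.8 TPM in the pellets, so eluate 1 lay under pellet 1 and the groups overlapped. As CPM, which long messages weigh on more, the sums were 1589 ± 21.1 in the eluates and 1459 ± 23.1 in the pellets (SD, n = 3 each), without overlap. The 26 members outside the kinase module had a median log2 fold change of 0.28, with 13 higher, 5 lower and 8 not called. Of all genes tested, 24.5% were higher and 28.2% lower. With the trend in GC and length removed, 13 of the 26 were higher and 3 lower, against 15.6% and 14.3% of all genes tested.

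Med14, the scaffold that joins head, middle and tail, was lower. It had 19.3, 22.6 and 21.8 CPM in the eluates, against 26.5, 31.5 and 32.1 CPM in the pellets (-0.50 ± 0.11, adjusted p = 0.00183). Its coding sequence, at 4377 nt, is among the longest outside the kinase module.

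In the head module, which contacts the polymerase, 4 of 7 messages were higher, 2 were lower and 1 was not called, with a median of 0.30. With the trend in GC and length removed 2 were higher and 2 lower, with a median of -0.14. These counts, and those of the modules below, stand beside 24.5% higher and 28.2% lower of all genes tested. With the trend removed the shares of all genes were 15.6% and 14.3%. Med17, the architectural centre of the head, had 54.9, 53.2 and 48.4 CPM in the eluates, against 81.3, 69.0 and 71.2 CPM in the pellets. It changed by -0.50 ± 0.088 (adjusted p = 0.000193), with a gap between the groups. Med6, a conserved subunit at the joint of head and middle, fell by 0.48 ± 0.10 on the log2 scale (adjusted p = 0.000810). Med11, the smallest coding sequence of the complex at 381 nt in its longest form and a binding partner of Med17, was higher, with 38.0, 42.2 and 40.1 CPM in the eluates, against 26.8, 31.9 and 27.0 CPM in the pellets (0.49 ± 0.10, adjusted p = 0.000770). Med22, which pairs with Med11, rose by 0.31 ± 0.085 (adjusted p = 0.00581). Med8 and Med18, which with Med20 form a mobile lobe of the yeast head, rose by 0.30 ± 0.080 (adjusted p = 0.00510) and 0.35 ± 0.11 (adjusted p = 0.0119). The third of them, Med20, had a log2 fold change of 0.18 ± 0.093 that was not called (adjusted p = 0.108), and 22.7% of its 31-base words are shared with Gm20517. The Med18 call was lost without eluate 1 (adjusted p = 0.0590) or pellet 3 (0.0647). The calls of Med8 and Med22 were lost without both libraries numbered 2 (adjusted p = 0.0510 and 0.0996) and without both numbered 3 (0.0876 and 0.0608).

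In the middle module, 4 of 9 messages were higher, 2 were lower and 3 were not called, with a median of 0.13, and 4 were higher and 1 lower with the trend in GC and length removed. Med1, the subunit that nuclear receptors bind, had 43.1, 41.7 and 45.4 CPM in the eluates, against 62.4, 58.7 and 64.1 CPM in the pellets (-0.51 ± 0.083, adjusted p = 9.80e-05). Per unit length the groups were not apart, at 8.01, 8.52 and 9.50 TPM in the eluates and 12.03, 9.76 and 9.40 TPM in the pellets, and on TPM values the call was lost (-0.23, adjusted p = 0.154 by limma). The estimated counts put more of Med1 on transcripts other than the main one in the eluates, at 19.99%, 28.9% and 28.2%, against 14.8%, 17.5% and 6.88% in the pellets. The main transcript has 4725 coding nt and the chief minor one 1887. An offset for the effective length, which carries this shift, also ended the Med1 call (-0.14, adjusted p = 0.216). Med7, which pairs with Med21 to form the hinge of the yeast middle module, fell by 0.32 ± 0.10 on the log2 scale (adjusted p = 0.0181). That call was lost without eluate 1 (adjusted p = 0.0787), eluate 3 (0.0671) or pellet 3, where the value was -0.20 (0.138), and without both libraries numbered 3 (-0.18, 0.266) or with the effective-length offset (-0.20, 0.103).

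Med9 was the middle module message with the largest rise on the counts, at 83.2, 81.9 and 92.8 CPM in the eluates, against 62.8, 48.4 and 47.6 CPM in the pellets (0.70 ± 0.10, adjusted p = 5.28e-05). Pellet 1 was nearest to the eluates, and the groups did not overlap. With the trend in GC and length removed, Med9 was not called (0.13, adjusted p = 0.226). Med26, which recruits elongation factors to the polymerase, had 54.4, 58.6 and 56.3 CPM in the eluates, against 47.8, 38.9 and 37.4 CPM in the pellets (0.45 ± 0.098, adjusted p = 0.00122). Med10, a core subunit conserved to yeast, rose by 0.43 ± 0.090 (adjusted p = 0.000847), and Med19, a subunit at the outer end of the middle module, by 0.27 ± 0.070 (adjusted p = 0.00367). The trend removal ended the calls of Med26 (0.13, adjusted p = 0.225) and Med10 (-0.0080, adjusted p = 0.955). Med26 shares 11.8% of its 31-base words with Gm17435, and Med19 shares 10.6% with Zdhhc5. Med21, Med4 and Med31, small conserved subunits, had log2 fold changes of -0.066 ± 0.083 (adjusted p = 0.534), 0.042 ± 0.078 (0.683) and 0.13 ± 0.096 (0.269) and were not called. Of their 31-base words, 37.6% of those of Med31 are shared with 4930563E22Rik and 21.2% of those of Med4 with Gm9434, and none of those of Med21 with another gene. The pair Med9 and Med21, whose coding sequences of 426 and 432 nt differ in the letters shown above, stood at TPM ratios of 0.461, 0.452 and 0.517 in the eluates, against 0.378, 0.276 and 0.265 in the pellets. Every eluate ratio was above every pellet ratio. The log2 fold change of Med9 less that of Med21 was 0.76 on the counts and turned to -0.31 with the trend in GC and length removed.

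In the tail, the module that many activators bind, 2 of 5 messages were higher, 3 were not called and the median was 0.28. Med25, a target of the viral activator VP16 in human cells, was the tail message with the largest rise. It had 160.0, 153.7 and 162.9 CPM in the eluates, against 102.8, 85.1 and 90.05 CPM in the pellets (0.78 ± 0.078, adjusted p = 1.09e-06). The gap between the groups was wider than the spread within either. Med15, which sterol response activators bind, rose by 0.46 ± 0.094 (adjusted p = 0.000664). Med23, which the growth factor-regulated activator Elk1 binds, had 24.5, 26.7 and 25.6 CPM in the eluates, against 33.2, 30.8 and 27.4 CPM in the pellets. Every eluate was below every pellet, but the log2 fold change of -0.25 ± 0.11 was not called (adjusted p = 0.0553), and it was called without pellet 3 (-0.32, 0.0359). Med24, a neighbour of Med23 in the tail, had -0.10 ± 0.093 (adjusted p = 0.383). Med16, a further tail subunit, had 0.28 ± 0.12 (adjusted p = 0.0579) and was called without pellet 1 (0.42, 0.000700).

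Med27, Med28, Med29 and Med30 sit where head and tail meet in animal Mediator, and 3 of these 4 messages were higher, with a median of 0.49. Med29 had 73.8, 74.6 and 77.0 CPM in the eluates, against 41.6, 41.9 and 37.8 CPM in the pellets. Its log2 fold change of 0.89 ± 0.081 was the highest of the 33 (adjusted p = 4.72e-07), and both groups were tight. Med27 had 21.1, 17.01 and 19.4 CPM in the eluates, against 13.4, 13.0 and 14.7 CPM in the pellets (0.49 ± 0.13, adjusted p = 0.00508). Med28 had 92.6, 99.3 and 96.2 CPM in the eluates, against 75.7, 70.1 and 59.9 CPM in the pellets (0.48 ± 0.087, adjusted p = 0.000231). In both, every eluate was above every pellet, and the Med27 call was lost with the trend in GC and length removed (0.15, adjusted p = 0.391). Med30 had 0.17 ± 0.12 (adjusted p = 0.240) and was not called.

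**Figure D2:**
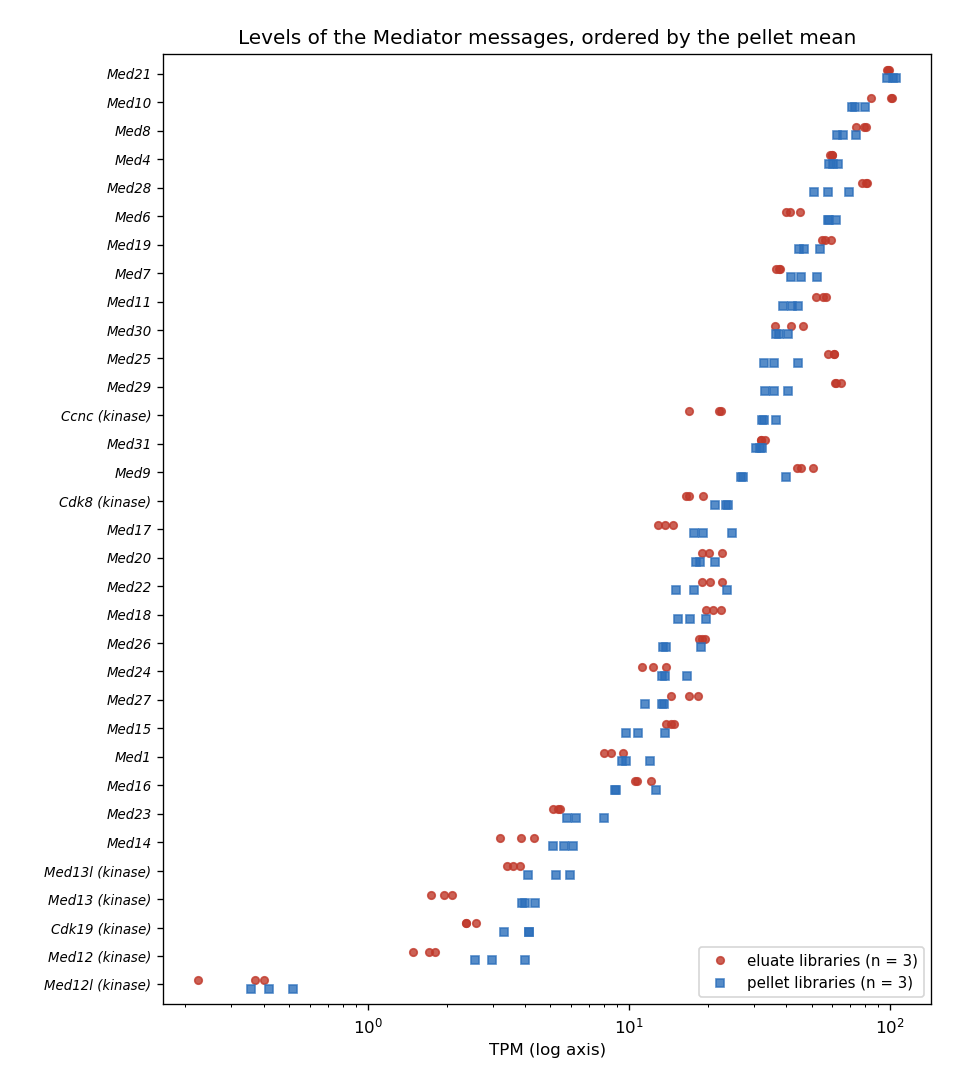
Each point is the level of 1 Mediator message in 1 library in TPM on a log axis, with eluates as red circles and pellets as blue squares, ordered by the pellet mean. Levels run over more than 2 orders of magnitude, with Med12l lowest and Med21 highest in the pellets, and the messages with the lowest pellet means are the kinase module members Med12l, Med12, Cdk19, Med13 and Med13l.

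Levels per unit length spanned a wide range. The median over the members was 20.6 TPM in the eluates and 20.5 TPM in the pellets. In the pellets the means ran between 0.430 TPM for Med12l and 101.8 TPM for Med21, with Med10 next below Med21. The rounded counts behind these values were 18 to 1836 in a library, so Med12l in particular was measured at low depth.

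Coding lengths of the 33 messages ran over 381 to 6648 nt, and GC content of their transcripts over 34.98% to 60.8%. Members with longer coding sequences tended to be lower in the eluates and members with more GC to be higher. Across the 33 members Spearman's rank correlation of the log2 fold change was -0.56 with coding length and 0.62 with GC, against -0.42 and 0.71 across 12195 nuclear coding genes tested. These values describe genes that share the same 6 libraries and are not independent replicates. Taking each eluate alone against the pellet mean, the rank correlation was -0.49, -0.60 and -0.57 with length and 0.66, 0.61 and 0.60 with GC for eluates 1 to 3. Coding length and GC were nearly unrelated among the members (rank correlation = -0.033). Without the kinase module, the rank correlation over the 26 remaining members was -0.39 with length and 0.62 with GC. The rank correlation with the GC of the coding sequence, 0.73, and of the third codon position, 0.71, was higher than with that of the whole transcript, while across the 12195 genes the order was the opposite, at 0.71 for the transcript, 0.68 for the coding sequence and 0.64 for the third position.

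The members were divided at the median length of 849 nt and the median GC of 48.6%. Of the 8 that were longer with GC at or under the median, which were Med13, Med12l, Cdk19, Med1, Med17, Med14, Cdk8 and Med23, 7 were lower and 0 were higher, with a median log2 fold change of -0.50. Of the 8 that were shorter with more GC, which were Med31, Med20, Med8, Med22, Med10, Med11, Med9 and Med29, 6 were higher and 0 were lower, with a median of 0.37. The 8 longer members with more GC included 4 that were higher, among them Med25, and 2 that were lower, Med12 and Med13l, with a median of 0.36. The 9 shorter members with less GC included 3 that were higher and 3 that were lower, Ccnc, Med6 and Med7, with a median of 0.042. These counts stand beside 24.5% higher and 28.2% lower of all genes tested, which were not divided in this way.

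**Figure D3:**
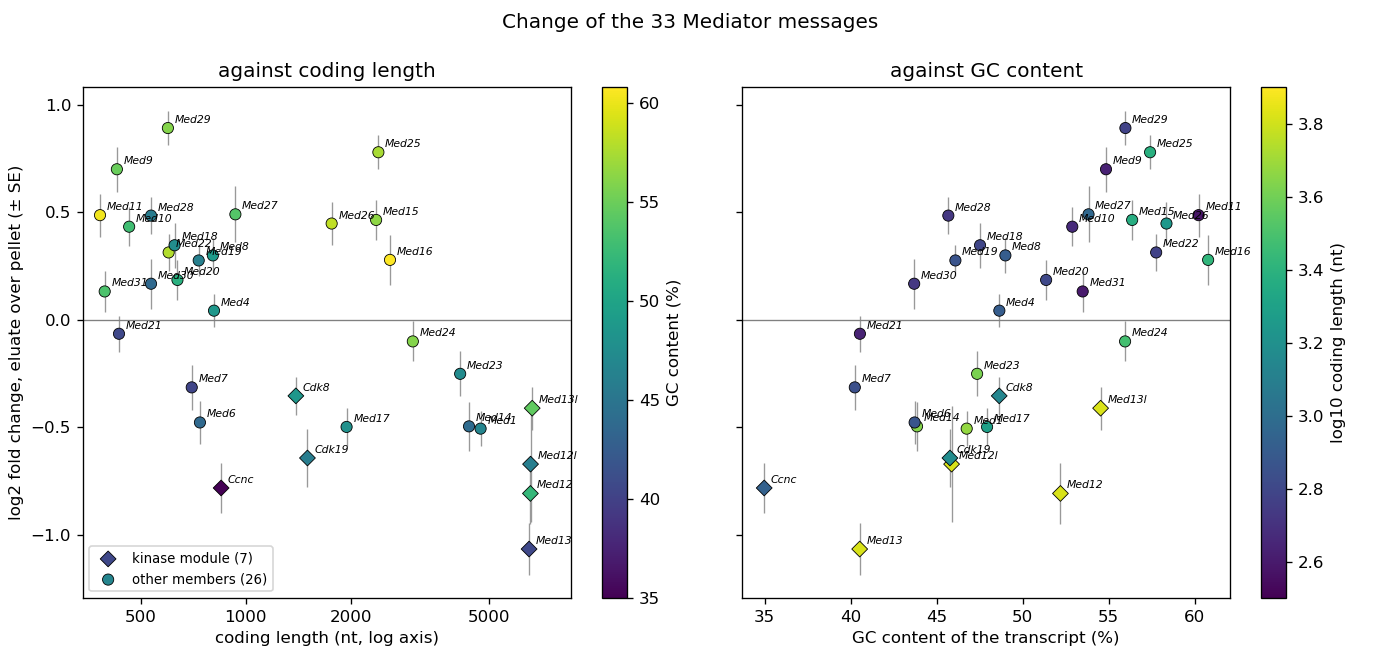
The log2 fold change of eluate over pellet, with its SE, is plotted for each of the 33 Mediator messages against coding length on a log axis (left, coloured by GC) and against GC content of the transcript (right, coloured by length). Diamonds are kinase module members, which all lie below 0, and the rank correlation over all members was -0.56 with length and 0.62 with GC.

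The comparison was repeated after removing the smooth trend in GC and length that each library showed over all genes tested. Then 15 members were higher and 4 lower, against 15.6% and 14.3% of all genes tested, and the median was 0.15. With the trend in GC alone removed the counts were 14 higher and 4 lower, against 22.5% and 19.1% of all genes tested. After removal of both trends the kinase module no longer moved one way. Med13 was higher (0.31 ± 0.10, adjusted p = 0.0184), as was Ccnc (0.30 ± 0.10, adjusted p = 0.0372), Med12 stayed lower (-0.34 ± 0.13, adjusted p = 0.0453), and the other 4 were not called, with a module median of -0.080. Beside Med13 and Ccnc, 3 more members turned round into a higher call. These were Med14 (0.48 ± 0.099, adjusted p = 0.000393), Med1 (0.25 ± 0.080, adjusted p = 0.0194) and Med7 (0.29 ± 0.088, adjusted p = 0.0118). Med22 and Med11 turned the other way, to -0.37 ± 0.075 (adjusted p = 0.000401) and -0.35 ± 0.098 (adjusted p = 0.00683). The GC used there for both was that of a transcript with few of the counts, as it was for Med10, Med12l, Med13l, Med23 and Med24. The longest coding form of Med11 has 60.2% GC and held 0.153% of its counts in the eluates and 0.186% in the pellets on average, and its main form has 53.0% GC. For Med22 the longest coding form has 57.8% GC and held 8.58% in the eluates and 9.62% in the pellets on average, while its main form has 54.2%. With GC and length taken from the transcript with the most counts of each gene, an alternative chosen after seeing the data, Med11 was not called (0.018, adjusted p = 0.909) and Med22 was lower by less (-0.21, adjusted p = 0.0337). That alternative gave 15 members higher and 2 lower, against 15.2% and 13.8% of all genes tested. The same 15 were higher in both trend-removed fits and Med31 and Med22 lower in both, and Med12 was not called (-0.33, adjusted p = 0.0524).

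Counts of members that kept or changed direction after the trend removal are a description, with no such share of all genes tested beside them. In all, 15 members were called in both fits, 8 of them in the same direction. Those were Med12, lower in both (though not with the transcript with the most counts), and 7 that were higher in both: Med25 (0.62 after removal), Med28 (0.57), Med19 (0.40), Med15 (0.35), Med18 (0.31), Med29 (0.30) and Med8 (0.22). Med21, Med30 and Med23, which had not been called, became higher, at 0.44, 0.43 and 0.40, and Med31 became lower, at -0.36. Called on the counts and not after removal were Med9, Med10, Med26 and Med27, which had been higher, and Med12l, Cdk19, Med13l, Cdk8, Med17 and Med6, which had been lower. The relation with length was then 0.071 and that with GC -0.40 across the 33 members. Across the 12195 nuclear coding genes they were -0.042 and -0.0011. With the GC of the coding sequence the relation among the members was -0.024. The cause of either set of changes was not tested.

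**Figure D4:**
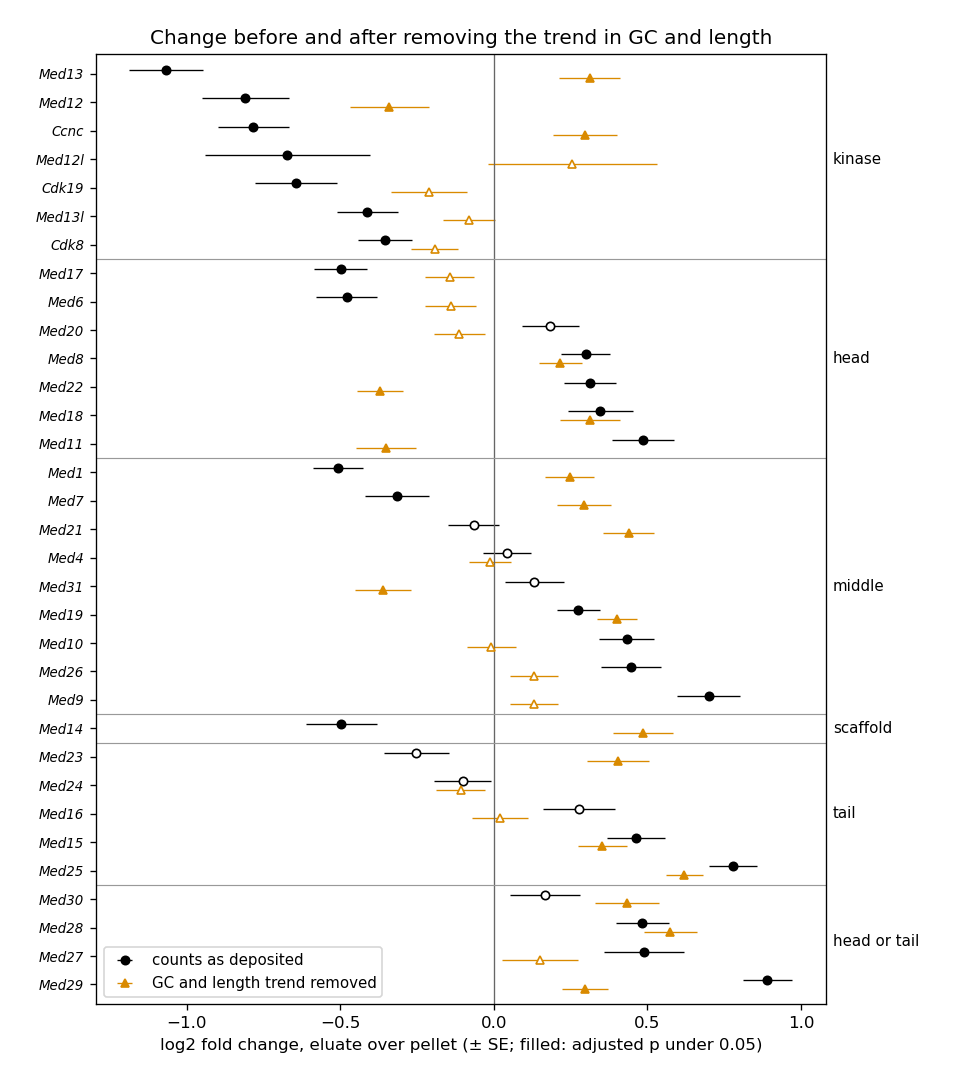
For each Mediator message, the log2 fold change of eluate over pellet with its SE is shown on the counts as deposited (black circles) and after removing the trend in GC and length (orange triangles), with filled symbols for an adjusted p under 0.05. Among those that move to the right are the kinase module, Med14, Med1, Med7, Med23 and Med21. Among those that move to the left are Med29, Med9, Med10, Med22, Med11 and Med31 (Med22 and Med11 by less with the GC of their main transcripts).

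Other messages of transcription initiation and elongation were taken from lists of 13 RNA polymerase II subunits, 15 TFIID subunits, 17 other general factors and 16 genes of pause release and elongation, all of them measured. The counts below stand against 24.5% higher and 28.2% lower of all genes tested. Among the polymerase subunits 9 were higher and 2 lower, with a median of 0.36. Polr2e, a small shared subunit, averaged 609.7 ± 10.4 CPM in the eluates and 349.2 ± 19.9 CPM in the pellets (SD, n = 3 each; 0.80 ± 0.065, adjusted p = 1.95e-07). Polr2b, the second largest subunit, averaged 60.9 ± 6.91 CPM in the eluates and 136.7 ± 14.7 CPM in the pellets (-1.17 ± 0.096, adjusted p = 3.38e-07), and Polr2m, the list's most abundant message, was not called (-0.056). Among TFIID subunits 5 were higher and 6 lower, with a median of 0.057, and they included Taf10 at 0.60 ± 0.065 (adjusted p = 2.26e-06) and Taf1, the largest TFIID subunit, at -1.48 ± 0.13 (adjusted p = 2.66e-06). Of the other general factors 3 were higher and 7 lower (median -0.12), with Gtf2h5, a small TFIIH subunit, at 0.34, Gtf2a1, of TFIIA, at -0.97, and Gtf2h3, a TFIIH subunit, at 0.074, which was not called. Of the pause and elongation genes 6 were higher and 6 lower (median 0.039), with Nelfe, of the pausing factor NELF, at 0.53, and Ccnt2, a cyclin of the pause release kinase, at -0.97. With the trend in GC and length removed, 4 polymerase subunits were higher and 2 lower, 3 TFIID subunits higher and 1 lower, 3 general factors higher and 3 lower, and 3 elongation genes higher and 2 lower, against 15.6% and 14.3% of all genes tested.

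The authors' deposited table of the same comparison holds 4892 genes, all with an adjusted p under 0.05. Of these genes, 2177 are higher and 2715 lower. The authors' deposited table lists 18 of the 33 Mediator messages, 10 higher and 8 lower. Med1, Med12l, Cdk8, Med7, Med22, Med18 and Med27, which were called here, are absent from it. All 18 in the authors' deposited table have the direction and the call found here, for example Med13 at -0.99 and Med29 at 0.86 on the log2 scale. The authors' deposited table rests on the same 6 libraries.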

How the data were processed

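Poly(A) RNA of 3 eluate and 3 pellet samples, grouped by their titles, was compared. The submitters' processing notes name Salmon 1.10.3, STAR 2.7.11b, DESeq2 1.44.0 and cutadapt 4.7, with the build GRCm39 and no annotation release. The deposited Salmon files hold, per the file headers, an estimated count, TPM, a length and an effective length (other) per transcript. The authors' deposited table holds, per the file headers, a mean normalized count (signal), a log2 fold change with its standard error, a Wald statistic (score), a p-value and an adjusted p-value. Nothing used here states its design formula.

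Identifiers of the 84226 transcripts were looked up in GENCODE mouse release 21, on another build (GRCm38), so no genome coordinates are printed. Of these, 76858 matched, 75250 with the same length, in 51912 genes. The other 7368 held 1.63% to 2.35% of a library's counts and were left out. Transcripts of similar sequence can exchange reads in such estimates. The 33 members had 72 matched transcripts.

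Estimated counts were summed per gene, rounded and tested with edgeR 4.0.16 in R 4.3.3 (robust quasi-likelihood fit, TMM factors, default low-count filter, Benjamini-Hochberg adjustment over all genes tested, threshold 0.05). CPM use TMM-scaled totals and errors of log2 fold changes are standard errors. The 95% intervals set against a 1.5-fold change are from voom in limma 3.58.1. Coding length and GC are those of the longest coding transcript. The trends in GC and log length were removed with splines of 5 degrees of freedom per library. Chi-square values per gene were 3.13 to 18.3 within groups and 33.4 to 82.8 between them, and every library was kept as its own sample. TPM were tested as log2(TPM + 1) with limma over genes with a mean TPM of at least 1, and with a pseudocount of 0.1. DESeq2 1.42.0 was an alternative, and the test was run on simulated data first. Tables were made with pandas 2.3.3 and numpy 2.4.6 in Python 3.11.15 and drawn with matplotlib 3.10.9.

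The members, modules, lists, markers and tests were chosen with earlier results of these data known. Per-library values are given for the 5 lowest and 5 highest called members, the paralog pairs, Med1, Med14, Med17, Med23, Med26 and Ccnc. From each other list the rule took the member with the smallest p in each direction and the one with the highest mean CPM, and 1 gene so taken is not reported here. Med28 and the pair of Med9 and Med21 were added after their values were seen, and taking GC, or GC and length for the trend removal, from the transcript with the most counts was an alternative chosen after seeing the data. Shared 31-base words were counted on that transcript too.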

Additional observations from a re-analysis of the deposited data

How the results depend on the processing

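Over 26 alternative settings, 691 of 856 values of single members kept their direction and side of the threshold, 85 lost the call, 17 gained one and 63 changed sign. All 25 called members kept their direction in every setting run without trend removal, and 14 of them also kept their call in each of those. The settings that changed most were those that removed a trend. Members called lower numbered 4 with the GC and length trend removed, 4 with the GC trend removed, 4 with the replicate block and the GC and length trend removed and 2 with that trend taken from the transcript with the most counts (chosen after seeing the data), against 12. Genes called numbered 3960 with the GC and length trend removed, 3995 with the block as well and 3841 with the transcript with the most counts, against 6977. Members called higher numbered 7 on log2(TPM + 1) and 7 on log2(TPM + 0.1), of 32 tested on each, against 13. Genes called higher numbered 1889 and 1886 of 12095 tested on those scales, against 3241 of 13231. The rank correlation with GC was 0.62 for the transcript with the most counts, 0.73 for the coding sequence and 0.71 for the third codon position. Leaving out single libraries or both of 1 number gave 8 to 12 members lower, 10 to 14 higher, 4611 to 7761 genes called (4611 without both libraries numbered 3), rank correlations with length of -0.60 to -0.49 and with GC of 0.58 to 0.68. 

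With the GC and length trend removed the sign changed for Med13 (0.31), Ccnc (0.30), Med12l (0.26), Med1 (0.25), Med14 (0.48), Med7 (0.29), Med23 (0.40), Med21 (0.44), Med4 (-0.012), Med31 (-0.36), Med20 (-0.11), Med22 (-0.37), Med10 (-0.0080) and Med11 (-0.35). With the replicate block and the GC and length trend removed it changed for Med13 (0.31), Ccnc (0.30), Med12l (0.25), Med1 (0.25), Med14 (0.49), Med7 (0.30), Med23 (0.41), Med21 (0.44), Med4 (-0.011), Med31 (-0.36), Med20 (-0.12), Med22 (-0.37), Med10 (-0.010) and Med11 (-0.35). With the trend taken from the transcript with the most counts it changed for Med13 (0.34), Ccnc (0.32), Med12l (0.17), Med1 (0.25), Med14 (0.50), Med13l (0.11), Med7 (0.37), Med23 (0.38), Med21 (0.45), Med4 (-0.0087), Med31 (-0.36), Med20 (-0.11) and Med22 (-0.21). With the GC trend alone removed it changed for Ccnc (0.50), Med14 (0.088), Med6 (0.12), Med7 (0.56), Med23 (0.034), Med21 (0.78), Med31 (-0.031), Med16 (-0.20) and Med22 (-0.052). With the length trend alone removed it changed for Med1 (0.0077), Med13l (0.21), Med23 (0.22), Med24 (0.27), Med4 (-0.11), Med31 (-0.12), Med30 (-0.068) and Med20 (-0.025). Among the other settings, Med21 changed sign with upper-quartile factors (0.025) and an effective-length offset (0.061), and Med4 on both TPM scales (-0.026 each) and without pellet 1 (-0.00089, the lowest of its values of -0.00089 to 0.093 when libraries were left out). The cause was not tested.

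By the protocol each pellet was divided, but the labels do not say that a replicate number marks a shared pellet. Deviations of eluate and pellet with the same number correlated across genes at 0.084, 0.15 and 0.0085 for numbers 1 to 3, and eluate 3 correlated best with pellet 1 (0.10). With the replicate block 14 members were higher and 11 lower, with 7076 genes called. Med12l lost its call (adjusted p = 0.0650) and Med16 gained one (0.0264) by edgeR's quasi-likelihood test, and the block changed no other member's call. Depth limits Med12l most, at as few as 18 counts in a library.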

Other observations

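Of the 33 Mediator genes, 21 had several matched transcripts, and in 17 of these the transcripts other than the main one held at least 5% of the gene's estimated counts on average in at least 1 of the groups. In 14 of the 17 the shares overlapped between eluates and pellets, with no count over all genes to set beside this. Med6, for example, had minor shares of 0.886%, 42.4% and 55.3% in eluates 1 to 3 and 49.4%, 25.2% and 21.2% in pellets 1 to 3, so the split between its transcripts varied as much within a group as between groups. Beside Med1, the groups were apart in Med13l and Med25. The minor transcript of Med13l held 24.1%, 3.82% and 17.2% in the eluates and 1.61%, 0% and 1.97% in the pellets. The minor transcripts of Med25 held 31.1%, 32.7% and 32.4% in the eluates and 43.7%, 38.3% and 39.5% in the pellets. These shares are Salmon estimates for transcripts that overlap, and no test was made of them.

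The TPM ratio of Ccnc over Med27, a pair of similar coding length (849 and 933 nt) but of 34.98% and 53.8% GC, was 0.926, 1.52 and 1.33 in the eluates, against 2.43, 2.80 and 2.72 in the pellets. The TPM ratio of Med12 over Med31, a pair of similar GC (52.2% and 53.5%) but of 6570 and 393 coding nt, was 0.0545, 0.0537 and 0.0467 in the eluates, against 0.123, 0.0943 and 0.0840 in the pellets. Both ratios were lower in every eluate than in every pellet. The pairs were picked for their length and GC, with their values known, so the ratios are a description. With the trend in GC and length removed the log2 fold change of Ccnc less that of Med27 was 0.15, against -1.27 on the counts, and that of Med12 less that of Med31 was 0.020, against -0.94. Pellet 1 was the pellet nearest to the eluate mean in 16 of 33 members, or 48.5%, against 55.2% of all genes tested.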
